A study of Mus musculus with 13 samples.

Results

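MicroRNA counts of vesicles from mouse plasma fell into 2 kinds of library, those in which miR-5119 took more than 20% of all counts (rich) and those in which it took less (poor). The split was selected on the measured share of that 1 miRNA and not on any label: 5 of the 10 plasma libraries were rich and 5 were poor, out of 13 libraries in all. Plasma came from Balb/C mice carrying the C26 colon adenocarcinoma under the skin of the back, labelled cachectic and killed 14 days after injection of the tumour cells (6 libraries), or from mice labelled healthy (4 libraries). Vesicles had been pelleted by ultracentrifugation and their total RNA made into small RNA libraries. The remaining 3 libraries hold vesicles that C26 cells released into serum-free medium over 48 hours (TMVs), and serve here only for reference. C26 1 to 6 and control 1 to 4 are the plasma libraries in the labels' replicate order. The labels do not say whether each came from a separate animal, and the descriptions of control 2 and control 3 each hold 2 numbers, so the p-values below measure the spread between these libraries.

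A miRNA is cut from a hairpin precursor whose 5p and 3p arms can each be loaded into an Argonaute protein, which then binds messenger RNAs through the seed, bases 2 to 8 of the miRNA. Plasma vesicles carry miRNAs of many sources, among them red cells (miR-451a, miR-486), liver (miR-122), muscle (miR-1, miR-206), platelets and white cells (miR-223). A count in such a library is relative to all other counts in it: fewer vesicles of a source and less of a miRNA in each vesicle cannot be told apart. Names are given without the prefix for mouse.

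The sequences of the miRNAs on which the split turns are shown first, from RefSeq's table for GRCm38.p6, 5′ to 3′, with the seed in capitals. miR-5119 defines the split, miR-5106 and let-7d-3p were named with it, and let-7d-5p is the other arm of the let-7d hairpin.
miR-5119: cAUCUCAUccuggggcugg
miR-5106: aGGUCUGUagcucaguuggcaga
let-7d-3p: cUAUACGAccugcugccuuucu
let-7d-5p: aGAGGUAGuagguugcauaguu
A further pair of late-numbered miRNAs, called higher in the rich libraries, is as short as miR-5119, at 19 bases each.
miR-5118: aAGGUUAGgccagccuggu
miR-5108: gUAGAGCAcuggaugguuu
Members of 1 seed family that did not move alike are set side by side here because their values recur below.
let-7b-5p: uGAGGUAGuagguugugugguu
let-7g-5p: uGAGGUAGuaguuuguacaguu
miR-125a-5p: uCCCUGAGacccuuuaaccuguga
miR-125b-5p: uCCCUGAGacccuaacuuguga
miR-221-3p: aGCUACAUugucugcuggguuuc
miR-222-3p: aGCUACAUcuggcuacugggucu
miR-26a-5p: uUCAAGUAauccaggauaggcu
miR-26b-5p: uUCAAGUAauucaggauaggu

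On GRCm38, miR-5119 lies on the plus strand at chr11:98262638-98262656, within an intron of the protein-coding gene Cdk12. The let-7d arms lie on the minus strand of chromosome 13, let-7d-3p at chr13:48536024-48536045 and let-7d-5p at chr13:48536078-48536099, both in an exon of the long noncoding RNA 6720427I07Rik. miR-5118, at chr16:55494770-55494788, overlaps no annotated gene but its own. miR-5108, at chr10:61774795-61774813 on the plus strand, lies opposite an intron of H2afy2. None of the seeds of miR-5119, miR-5106, miR-5118 and miR-5108 is shared with the others.

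miR-5119 took 26.6%, 38.4%, 58.7% and 41.1% of all counts in C26 1 to C26 4 and 46.1% in control 4. In the poor libraries it took 2.55% in C26 5, 0.332% in C26 6, and 0.0968%, 0.819% and 0.641% in control 1 to control 3. The rich group thus held 4 tumour-bearing libraries and 1 control, and the poor group 2 and 3. The libraries nearest the threshold were C26 1 inside it (26.6%, 95% Wilson interval 25.9% to 27.2%) and C26 5 outside it (2.55%, 2.37% to 2.74%), and thresholds of 5% or 10% gave the same groups. No molecular identifiers were used, so the intervals cover counting error alone and not the copying of molecules. In the TMV libraries miR-5119 had 56, 12 and 19 counts, at most 0.0382% of a library. The rich libraries carry consecutive numbers, 18 to 22, at the end of their descriptions in the labels, and the poor ones carry 15 to 17, 23 and 24. The labels do not say what these numbers stand for.

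miR-5106 and let-7d-3p were given with the split, so their values are a description with no test. With miR-5119 left out of every total, miR-5106 made up 2.30%, 5.76%, 9.33% and 1.82% of C26 1 to C26 4 and 1.98% of control 4. It made up 0.155% and 0.00934% of C26 5 and C26 6, and 0.00953%, 0.184% and 0.0299% of control 1 to control 3. All rich libraries were above all poor ones, and the poor library with the second highest share, C26 5, was also the poor library with the most miR-5119. let-7d-3p went the other way. It made up 0.0565%, 0.0936%, 0.0623% and 0.0864% of C26 1 to C26 4 and 0.0466% of control 4, against 0.424% and 1.43% of C26 5 and C26 6 and 1.16%, 0.647% and 0.992% of control 1 to control 3. No rich library reached the lowest poor one.

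**Figure D1:**
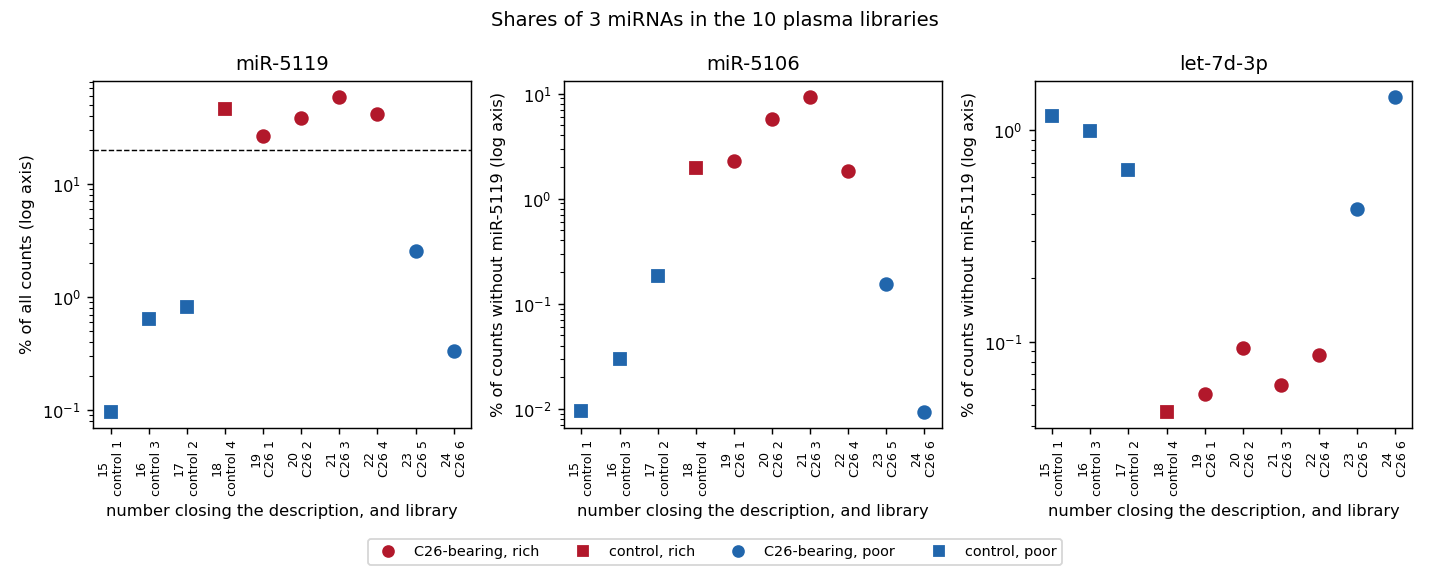
Share of miR-5119 in all counts, and of miR-5106 and let-7d-3p in the counts without miR-5119 (percent, log axes), in each plasma library, ordered by the number that closes its description in the labels; circles are C26-bearing and squares control libraries, and the dashed line is the 20% threshold. Libraries 18 to 22 are the 5 rich ones: miR-5106 lies at 1.82% to 9.33% there against at most 0.184% in the poor libraries, and let-7d-3p at no more than 0.0936% against at least 0.424%.

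The 2 arms of let-7d did not move together. In counts, the 3p arm stood at 0.571, 0.436, 0.246 and 0.263 times the 5p arm in C26 1 to C26 4 and at 0.25 times in control 4. In C26 5 and C26 6 the ratio was 3.03 and 10.2, and in control 1 to control 3 it was 23.6, 4.42 and 6.11. The arm that was more abundant was therefore the 5p arm in every rich library and the 3p arm in every poor one. The ratio in the TMV libraries, 0.250, 0.239 and 0.245, lay within the range of the rich libraries or just under it. The rich ratios rest on few reads, with 2 counts of the 3p arm and 8 of the 5p arm in control 4. let-7d-5p itself, at 0.0988% to 0.328% of the rich and 0.0493% to 0.162% of the poor libraries, differed by a log2 fold change of 0.29 (edgeR's quasi-likelihood test, adjusted p = 0.676).

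Without miR-5119 the libraries held 4293 to 47017 counts when rich and 27136 to 130543 when poor, means of 19713 ± 17787 and 74201 ± 50468 (SD, n = 5 each; exact permutation test over all splits into 5 and 5, two-sided, p = 0.0476, adjusted over 2 library measures p = 0.0476). Without any 1 of C26 1, C26 3, C26 4 or the controls the exact p of this difference was 0.0635 to 0.0952, and within the tumour-bearing libraries the difference was -6064 counts (exact p = 0.8). The rich libraries spread their counts over more miRNAs. Thinned to 4293 counts, a rich library would show 243.3 ± 35.9 miRNAs and a poor one 152.4 ± 20.1 (SD, n = 5 each), with ranges of 212.6 to 297 and 129.6 to 180.3 that did not overlap (exact permutation p = 0.00794, the smallest these groups allow; adjusted p = 0.0159). The most abundant miRNA took 8.69% to 19.2% of a rich and 21.3% to 51.5% of a poor library. It was miR-148a-3p in 3 rich libraries, miR-1a-3p or miR-122-5p in the other two, and miR-486a-5p (3 libraries) or miR-122-5p (2) in the poor ones. Depth thus moved with the split, and its part in the differences below was not tested; leaving out the 2 libraries under 10000 counts gave 45 calls, of which 33 are among the 41 described next.

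All other miRNAs were then compared between rich and poor libraries, with tumour bearing as a term in the fit and miR-5119 left out of the totals. The groups were made from a count in the same libraries, so an adjusted p here says how sharply a miRNA went with miR-5119 across these 10 libraries, and nothing of a treatment. Of 126 miRNAs tested, 19 were called higher in the rich libraries (15.1%) and 22 lower (17.5%) at an adjusted p under 0.05, miR-5106 and let-7d-3p among them. The filter on low counts did not ask for counts in both groups. A miRNA nearly absent from either group entered through the other group, so its call is a description. In normalised CPM, all 5 rich libraries lay above all 5 poor ones for 14 of the 126 miRNAs (11.1%) and below them for 18 (14.3%). The median log2 fold change of all 126 was 0.26 with trimmed-mean scaling and 0.38, 0.60 and 0.64 with relative log, upper-quartile and total-count scaling. The calls split 21 higher to 21 lower, 28 to 17 and 24 to 14 under those scalings, so the balance of directions rests on the scaling. Only 26 calls were left without C26 1.

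**Figure D2:**
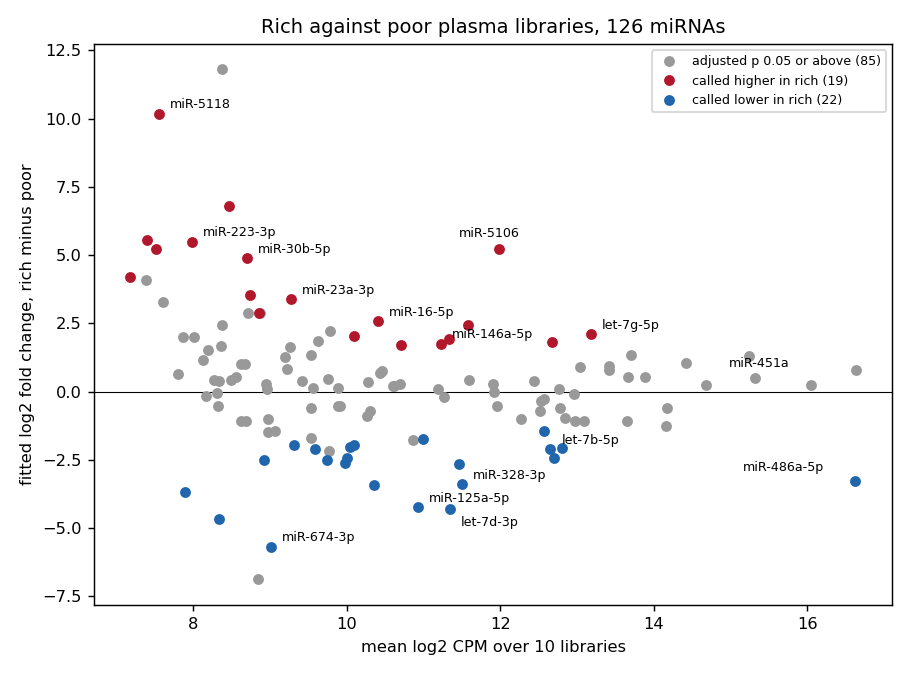
Fitted log2 fold change, rich minus poor with tumour bearing as a term, against the mean log2 CPM of each of 126 miRNAs; red points were called higher and blue points lower at an adjusted p under 0.05. The calls span the range of abundance, with miR-5118 among the least and miR-486a-5p the most abundant of them.

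The libraries of each labelled group were also set against each other. Of the 19 miRNAs called higher, 16 had all 4 rich tumour-bearing libraries above both poor ones, and for all 19 the rich control 4 was above the other 3 controls. Of the 22 called lower, 21 were separated among the tumour-bearing libraries, and control 4 was below the other controls for 19. These counts describe miRNAs already chosen by the pooled call. They were not made over all miRNAs tested, so no background share stands beside them. Fitted among the tumour-bearing libraries alone, 30 of 140 miRNAs were called, 24 of them among the 41. Among the controls alone 1 library stands for the rich group and is assumed to vary like the rest; 16 of 210 were called there, 8 of them among the 41, and the median log2 fold change was -0.55.

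The most abundant miRNA of the poor libraries was also among the most different. miR-486a-5p, a miRNA of the red cell lineage made from the Ank1 locus, took 21.3% of C26 5, 51.5% of C26 6 and 19.6%, 17.3% and 25.7% of control 1 to control 3. In C26 1 to C26 4 it took 2.24%, 2.90%, 3.69% and 7.09%, and in control 4 it took 4.12%. The groups did not overlap, and the log2 fold change was -3.29 (SE 0.578, adjusted p = 8.92e-04). Its other arm, miR-486a-3p, was lower by a similar amount at -3.43 (SE 0.525, adjusted p = 4.20e-04), with 0.0255% to 0.0864% of the rich and 0.180% to 0.698% of the poor libraries. miR-486b is a near-identical copy of miR-486a, so how counts were shared between them is uncertain.

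Other red cell miRNAs did not follow miR-486. miR-451a, which is matured by Argonaute 2 without Dicer, took 2.31%, 3.98%, 7.55% and 6.55% of C26 1 to C26 4 and 6.59% of control 4, against 4.62%, 1.29%, 3.41%, 2.31% and 5.64% of C26 5, C26 6 and control 1 to control 3. Those ranges overlapped, and the log2 fold change of 0.49 was not called (adjusted p = 0.483). The ratio of miR-451a to miR-486a-5p was 0.924 to 2.05 in the rich and 0.0250 to 0.220 in the poor libraries. miR-16-5p, present in most blood cells, was called higher at 2.57 (SE 0.648, adjusted p = 0.00650), with 0.183% to 0.941% of the rich and 0.0222% to 0.0886% of the poor libraries. In the whole red cell list 1 of 7 miRNAs tested was called higher and 2 lower, beside 15.1% and 17.5% of all 126. The median log2 fold change of the 7 was 0.08. The list's summed share was 5.13% to 15.3% in the rich and 20.99% to 54.1% in the poor libraries. Without the miR-486 arms it was 2.86% to 9.15% and 2.32% to 6.71%, which overlap.

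A second set of miRNAs lower in the rich libraries was less abundant and separated the groups as clearly. miR-328-3p made up 0.0494%, 0.166%, 0.147% and 0.173% of C26 1 to C26 4 and 0.0932% of control 4, against 0.685%, 1.68%, 0.460%, 0.344% and 0.607% of C26 5, C26 6 and control 1 to control 3 (log2 fold change -3.38, SE 0.481, adjusted p = 3.80e-04). miR-674-3p made up at most 0.0346% of a rich library, with 0 counts in C26 1 and control 4, and at least 0.162% of a poor one (-5.67, SE 0.861, adjusted p = 4.20e-04). miR-423-3p, -2.65, and miR-128-3p, a miRNA best known from brain, at -2.45, were lower too (SE 0.436 each). So was miR-151-3p at -2.05 (SE 0.439, adjusted p = 0.00281). For each of these 5 miRNAs the highest rich share stayed under the lowest poor one. miR-484, miR-676-3p, miR-99b-5p and miR-1964-3p were also called lower and did not overlap between the groups.

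Among miRNAs of blood cells and the vessel wall, several were at or near 0 in the poor libraries. They passed the filter on low counts through the rich libraries, where they were high, so their separation is a description. miR-223-3p, the miRNA of neutrophils and platelets, made up 0.0847%, 0.249%, 0.147% and 0.0346% of C26 1 to C26 4 and 0.0932% of control 4. In the poor libraries it had no counts in C26 5, C26 6 and control 2 and 0.00556% and 0.00536% in control 1 and control 3. The log2 fold change was 5.49 (SE 1.11, adjusted p = 0.00263), and the value in C26 4 rests on 2 counts. miR-145a-5p, of smooth muscle, was higher at 5.57 (SE 1.17), with 0.0173% to 0.0932% of the rich and at most 0.00369% of the poor libraries. These shares rest on few reads, with 9, 34, 10 and 1 counts in C26 1 to C26 4 and 4 in control 4. No poor library had more than 2 counts of miR-145a-5p, and without control 4 its adjusted p was 0.0518. The far more abundant miR-143-3p, also of smooth muscle, was not called at 0.52 (edgeR, adjusted p = 0.578). It ranged from 8484 to 32170 CPM in the rich and from 4816 to 34401 CPM in the poor libraries. miR-23a-3p made up 0.0691% to 0.396% of the rich and 0.0111% to 0.0245% of the poor libraries (3.38, SE 0.688, adjusted p = 0.00263). The platelet and endothelial list as a whole did not move one way, with a median of 0.20. It had 1 of 12 tested called higher and 1 lower, beside 15.1% and 17.5% of all 126. Its most typical member, miR-126a-3p, was not called at 0.54 (adjusted p = 0.323), with 1.26% to 2.65% of the rich and 0.430% to 1.41% of the poor libraries.

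In the white cell and inflammation list 2 of 9 miRNAs tested were called higher and 1 lower, beside 15.1% and 17.5% of all 126, and the median of 1.04 stood beside 0.26 over all 126. The list's summed share was 3.91% to 9.13% in the rich and 1.70% to 2.86% in the poor libraries. miR-21a-5p, a miRNA of many tissues raised in inflammation and tumours, was 1.93% to 6.96% and 0.741% to 2.01% on its own, and its log2 fold change of 1.04 was not called (adjusted p = 0.0582). miR-146a-5p, a feedback inhibitor of NF-kB signalling, made up 0.303%, 0.285%, 0.260% and 0.294% of C26 1 to C26 4, 1.07% of control 4, 0.111% and 0.0436% of C26 5 and C26 6, and 0.138%, 0.235% and 0.282% of control 1 to control 3. It was called higher at 1.76 (SE 0.389, adjusted p = 0.00359), with ranges that overlapped through control 3, and without control 4 its adjusted p was 0.0784. miR-155-5p, induced in activated lymphocytes and macrophages, was called lower at -3.67 (SE 0.995, adjusted p = 0.0103), with 0 counts in C26 1 and control 4 and at most 0.0346% of any rich library against 0.0307% to 0.109% of the poor ones. The rich values rest on few reads, with 1, 4 and 2 counts in C26 2 to C26 4. In control 4, 3 counts equal 698.8 CPM, so its 0 cannot be told from a level below detection.

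In the liver, muscle and epithelial lists 1 miRNA was called higher and 1 lower, beside 15.1% and 17.5% of all 126. Of 5 liver miRNAs tested 1 was called, miR-101b-3p, higher at 2.04 (adjusted p = 0.0354), a call that was lost without any 1 of C26 1, C26 5, C26 6, control 1, control 2 or control 3 (adjusted p from 0.0540 to 0.140). miR-122-5p, the dominant miRNA of hepatocytes, ranged from 1.23% to 11.1% of the rich and from 0.538% to 25.5% of the poor libraries, with a log2 fold change of 0.23 (adjusted p = 0.851). miR-148a-3p, abundant in liver and gut, ranged from 8.11% to 18.5% and from 3.34% to 13.2% (0.80, adjusted p = 0.252). Of 3 muscle miRNAs tested none was called (0.76 in the median), although miR-1a-3p, at 4.51% to 19.2% of the rich libraries and 0.679% to 8.58% of the poor, was at 1.32 (adjusted p = 0.122). Of 5 epithelial miRNAs tested 1 was called lower, miR-375-3p, known from pancreatic islets, at -1.97 (adjusted p = 0.0179; 0.0510 without C26 6), and the median was -0.99. Of the 4 tested members of the miR-17/92 and related clusters none was called, with a median of 0.51; miR-17-5p stood at 3.27 with an adjusted p of 0.0503. The 2 tested members of the Dlk1-Dio3 cluster, miR-541-5p and miR-434-5p, were not called (median 0.41).

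Members of 1 seed family were called in both directions in the let-7 family alone, among 15 families with 40 tested members. Of these families 8 held a call, beside 15.1% of all 126 miRNAs called higher and 17.5% lower. How many families would hold a call at those rates was not worked out. The let-7 family, which restrains growth and is named for its role in larval timing, had 9 members with the seed GAGGUAG tested, of which let-7g-5p was called higher and let-7b-5p lower. let-7g-5p made up 1.80%, 2.33%, 4.06% and 0.709% of C26 1 to C26 4 and 2.33% of control 4, against 0.282% to 0.503% of the poor libraries (log2 fold change 2.10, SE 0.471, adjusted p = 0.00359). let-7b-5p made up 0.219%, 0.487%, 0.454% and 0.415% of C26 1 to C26 4 and 0.280% of control 4, against 0.630% to 1.56% of the poor ones (-2.11, SE 0.438, adjusted p = 0.00263). The ratio of let-7g-5p to let-7b-5p was 1.71 to 8.93 in the rich libraries and 0.26 to 0.702 in the poor. let-7g-5p had an adjusted p of 0.0518 without control 4, and let-7b-5p one of 0.0508 without C26 6. Over all 9 members the median was 0.24, close to the 0.26 of all miRNAs, of which 15.1% were called higher and 17.5% lower. Of the 3p arms of the family only let-7d-3p passed the filter on low counts.

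Other seed families held a called member beside one that was not called. miR-125a-5p, at 0.0494%, 0.143%, 0.0549% and 0.121% of C26 1 to C26 4, 0 in control 4 and 0.343% to 1.21% of the poor libraries, was lower at -4.24 (SE 0.706, adjusted p = 5.89e-04). miR-125b-5p, with the same seed, made up 0.0403% to 0.270% of the rich and 0.131% to 0.153% of the poor libraries and stood at -0.88 (adjusted p = 0.280). miR-26b-5p was called higher at 2.89 (adjusted p = 0.0421), while miR-26a-5p stood at 0.81 (adjusted p = 0.136). miR-222-3p was called lower at -1.94 (adjusted p = 0.0460) and miR-221-3p, from the same transcript, stood at 1.33 (adjusted p = 0.0900); the call of miR-222-3p was kept in only 2 of the 10 fits that left out 1 library, those without C26 4 and C26 6. The difference between 2 members was not tested. miR-15b-5p (3.56) and miR-16-5p were both called higher. miR-146b-5p, with the seed of miR-146a-5p, stood at 0.11 (adjusted p = 0.844). Of the 7 miR-30 miRNAs tested, counting both arms, 2 were called higher and none lower (median 0.43), beside 15.1% and 17.5% of all 126. They were miR-30b-5p at 4.88 (SE 1.02) and miR-30c-5p at 1.93 (SE 0.446). miR-30b-5p had no counts in C26 4 and control 2, so its ranges overlapped.

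**Figure D3:**
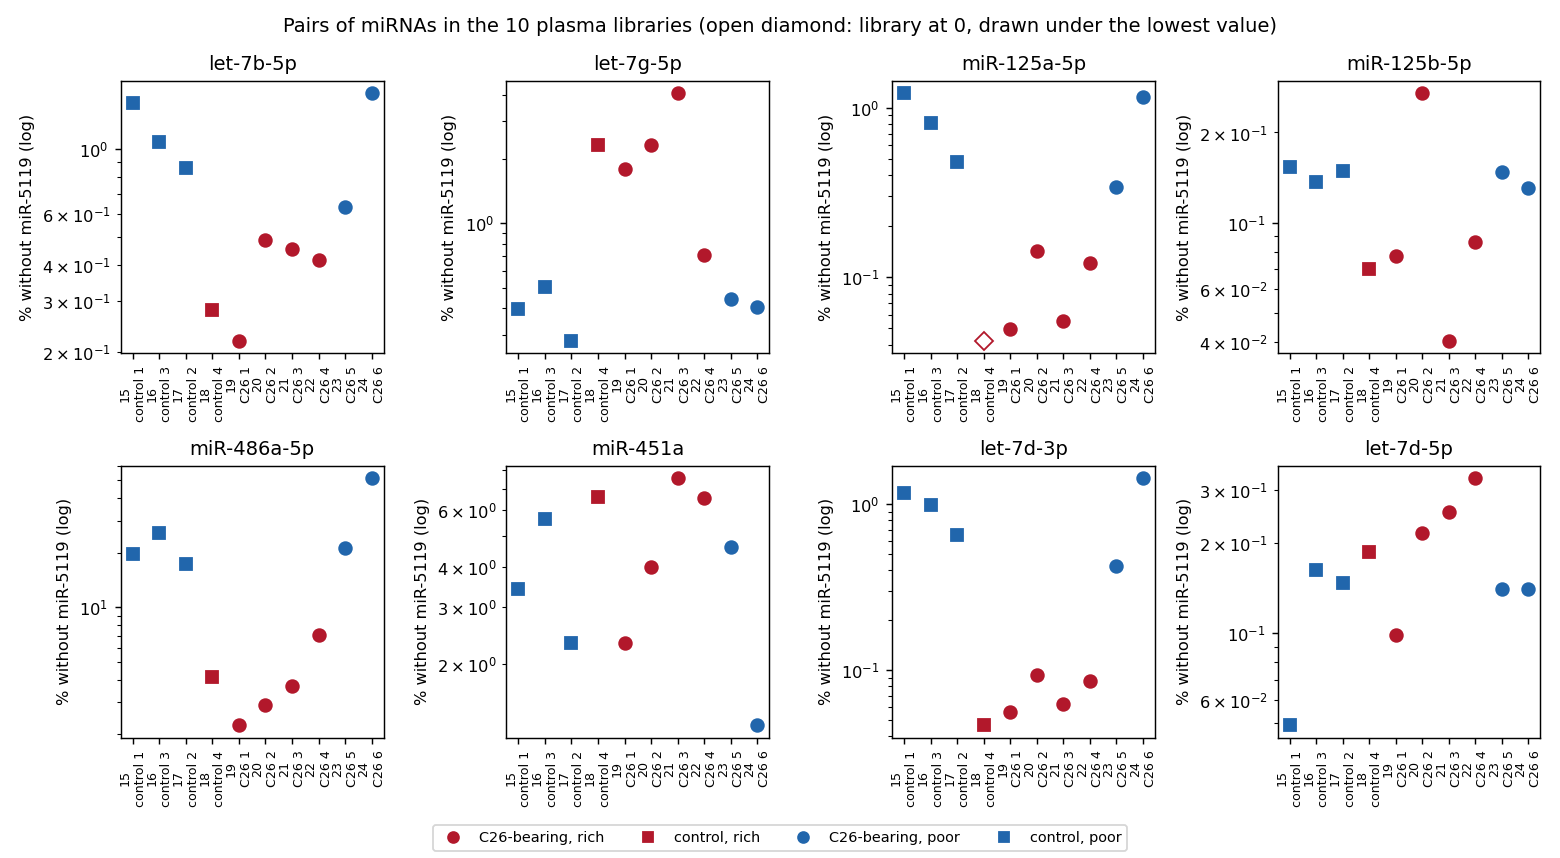
Percent of counts without miR-5119 (log axes) in each plasma library, ordered by the number that closes its description, for let-7b-5p and let-7g-5p, miR-125a-5p and miR-125b-5p, miR-486a-5p and miR-451a, and the 2 arms of let-7d; circles are C26-bearing, squares control, red rich and blue poor, and the open diamond marks control 4 at 0. let-7b-5p, miR-125a-5p, miR-486a-5p and let-7d-3p separate the groups downwards in the rich libraries and let-7g-5p upwards, while miR-125b-5p, miR-451a and let-7d-5p overlap.

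Late-numbered miRNAs, named in later releases of the miRNA registry and often less well supported, were called in both directions. Of 14 miRNAs tested with numbers of 5000 or above 4 were called higher and 2 lower (median 0.72), of 7 with numbers from 1000 to below 5000 1 and 2 (0.40), and of the 105 others 14 and 18 (0.24). miR-5118 had 21, 19, 17 and 1 counts in C26 1 to C26 4 and 16 in control 4, and none in any poor library. Against a floor of 3 counts over the whole poor group its share was at least 92.8-fold higher in the rich libraries. It passed the filter on low counts through the rich libraries alone, so that value is a description. miR-5108 made up 0.628%, 0.980%, 1.095% and 0.657% of C26 1 to C26 4 and 1.09% of control 4, against 0.0246% to 0.273% of the poor libraries (2.45, SE 0.591, adjusted p = 0.00550). miR-6984-5p (6.78, SE 1.49) was called higher as well, while miR-5126 and miR-6538 were called lower at -2.52 (SE 0.778) and -2.62 (SE 0.865). Each of these overlapped between the groups. For miR-6984-5p the poor control 3, at 0.0230%, lay above the rich C26 2, at 0.0128%. The poor control 1 lay at 0.0143% for both miR-5126 and miR-6538, under the lowest rich shares of 0.0233% and 0.0147%. All miRNAs of number 5000 or above together, miR-5119 left out, made up 6.03% to 15.8% of the rich libraries and 0.184% to 17.97% of the poor; the poor value of 17.97% was C26 5, and the other 4 poor libraries were at 1.87% or less.

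Both arms passed the filter for 10 precursors, with the minor arm taken as the one with fewer counts in the TMV libraries. The minor arm was the lower of the 2 in fold change for 5 of them, with a median difference of 0.05, while let-7d stood at -4.61. The next largest differences were 2.35 for miR-126a, whose 5p arm stood at 2.89 and 3p arm at 0.54, and -1.88 for miR-140, whose 3p arm was called higher at 1.82 (SE 0.406, adjusted p = 0.00359) with 0.726% to 1.82% of the rich and 0.118% to 0.526% of the poor libraries. Over 44 precursors with at least 10 plasma counts in each arm the minor arm was lower in 21, with a median of 0.07.

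Base composition differed along the comparison. A mature sequence was found for 106 of the 126 miRNAs (84.1%). Across these, Spearman's rho between the log2 fold change and the share of G and C was -0.38, as a description only, since the miRNAs share the same 10 libraries and are not independent. With length in its place rho was -0.06, and with mean log2 CPM it was -0.24. Of 17 miRNAs with under 40% G and C 3 were called higher and 1 lower, with a median of 1.04. Of 43 with 40% to under 50%, 9 and 2 were called (median 0.54), and of 46 with 50% or more, 5 and 14 (median -0.92). Within seed families, the member richer in G and C had the lower fold change in 34 of 43 pairs of unequal composition; the pairs share members, and the let-7 family gave 24 of 28 and all others 10 of 15. let-7g-5p has 36.4% G and C and let-7b-5p 45.5%, whereas miR-125a-5p and miR-125b-5p both have 50%. The value moved with the filter and the libraries: with no filter on low counts rho was 0.0823 over 827 miRNAs, and -0.37 in that fit over the same 106. It was -0.19 without control 2, -0.23 without control 1, -0.24 without C26 5 or control 3, -0.155 within the tumour-bearing and -0.0509 within the control libraries. A sequence was found for 17 of the 22 miRNAs called lower (77.3%), under the 80% needed. The others are in none of these counts, so the counts of lower calls do not describe that group as a whole.

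**Figure D4:**
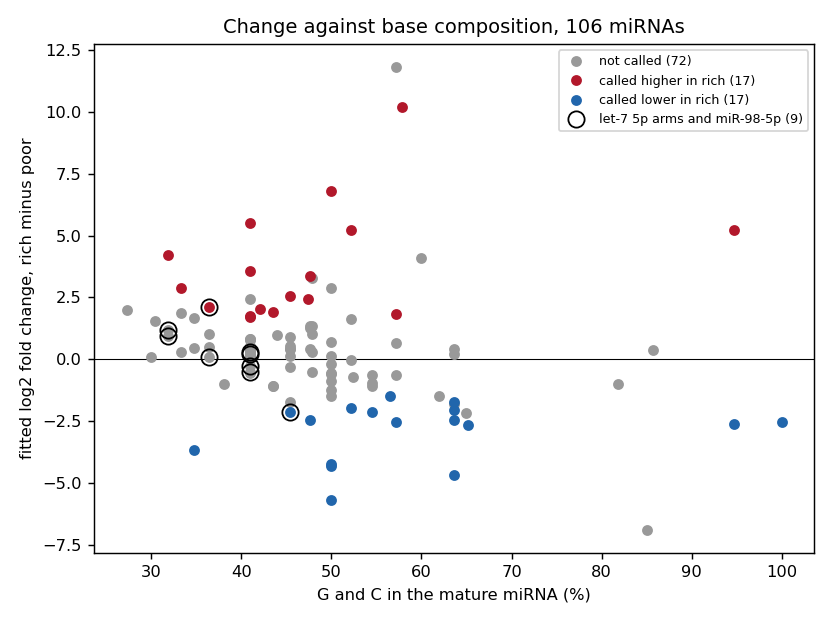
Fitted log2 fold change, rich minus poor, against the percent of G and C in the mature miRNA for the 106 miRNAs with a sequence; red were called higher, blue lower, and black rings mark the 9 let-7 family members. Of the 46 miRNAs at 50% and above 14 were called lower and 5 higher; 5 further miRNAs called lower have no sequence and are not drawn.

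The labelled comparison, C26-bearing against control, was fitted with and without rich or poor as a term, because 4 of 6 tumour-bearing but 1 of 4 control libraries were rich. Without the term 0 of 126 miRNAs were called (0%) by edgeR, 15 had an unadjusted p under 0.05, and DESeq2 and limma voom called 5 and 16. With the term 2 were called (1.59%), both lower in tumour-bearing mice, and 13 had an unadjusted p under 0.05. The biological coefficient of variation, the spread between libraries of 1 group in edgeR, was 0.931 without the term and 0.664 with it. Both fits use the same libraries, so their values are given side by side. miR-455-5p, a miRNA of cartilage, made up 0.0141%, 0.0234%, 0, 0.0173%, 0.00737% and 0 of C26 1 to C26 6 and 0.137%, 0.161%, 0.125% and 0.0932% of control 1 to control 4. All controls were above all tumour-bearing libraries, with a log2 fold change of -4.38 (SE 0.995, adjusted p = 0.0386) with the term and -4.13 (adjusted p = 0.0738) without it. miR-455-5p passed the filter on low counts through the controls, where it was high, so its separation and its call are a description. Its counts were 2, 11, 0, 1, 2 and 0 in C26 1 to C26 6 and 172, 89, 163 and 4 in control 1 to control 4. miR-146a-5p was called at -1.83 (SE 0.384, adjusted p = 0.0386) with the term and stood at -1.31 without it; control 4, its highest library, is the only rich control, and without that library it was at -1.45 with an adjusted p of 0.332. Neither call was stable: when 1 library was left out the call of miR-146a-5p was kept in 5 of 10 fits and was lost without C26 2 or any control, and that of miR-455-5p in 2 of 10, those without C26 3 and C26 4.

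Adding the term shifts a miRNA that differs between rich and poor by construction, since the labelled groups hold unequal numbers of rich libraries. miR-223-3p stood at 2.13 without the term and at -0.95 with it, miR-23a-3p at 1.42 and -0.16, miR-16-5p at 1.19 and -0.10, and miR-2861 at 3.81 and 0.69. On the other side let-7d-3p stood at -1.002 and 0.11, miR-125a-5p at -1.10 and 0.44, and let-7b-5p at -0.73 and 0.02. None of these 7 was called in either fit. miR-375-3p kept much of its size, at -2.65 and -1.95 (adjusted p = 0.266 with the term), as did miR-215-5p, of the intestine, at -1.61 and -1.12 (adjusted p = 0.394). miR-206-3p, of skeletal muscle, stood at 2.79 with the term (adjusted p = 0.394). A tumour effect that differed between rich and poor libraries was called for 0 of 126 miRNAs (0%) by edgeR, with 9 at an unadjusted p under 0.05, and for 0 by DESeq2 and by limma voom; the rich group holds a single control, which limits that test.

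**Figure D5:**
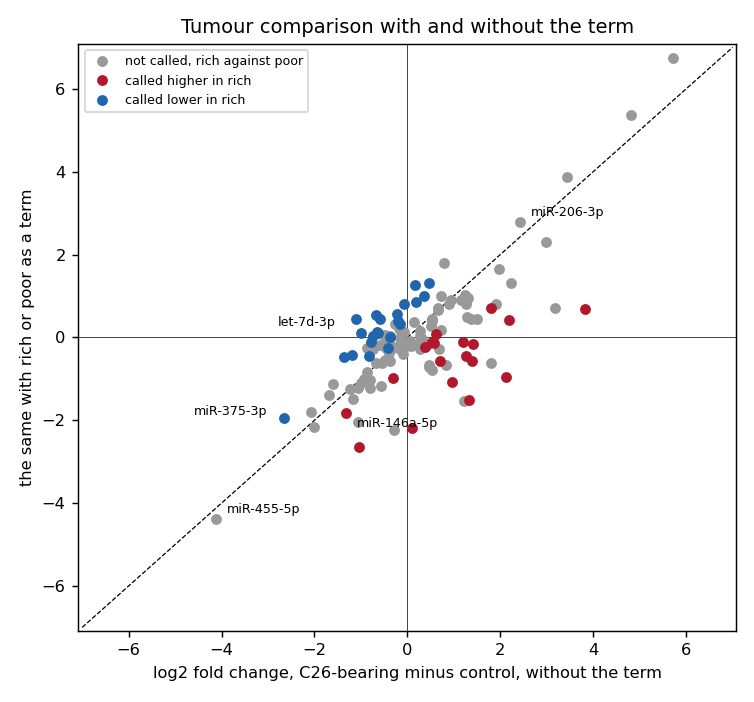
Log2 fold change, C26-bearing minus control, with rich or poor as a term (vertical) against the same without it (horizontal) for 126 miRNAs; colours give the call of rich against poor and the dashed line marks equal values. miR-455-5p lies near the line at -4.13 and -4.38, whereas miR-223-3p lies below it at 2.13 and -0.95. As 4 of 6 tumour-bearing and 1 of 4 control libraries are rich, the design itself puts miRNAs called higher in rich below the line and those called lower above it.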

How the data were processed

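Small RNA libraries had been made with the NEBNext kit and sequenced on a NextSeq500, per the labels' protocols. Reads were processed with bcl2fastq and cutadapt 1.10, per the submitters' processing notes (aligner, counter and build: not given in the sources used here). Raw counts were deposited, whole numbers per mature miRNA, for 1354 miRNAs in 10 plasma and 1164 in 3 TMV libraries, with no normalization by the authors; the 2 tables were not fitted together.

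miR-5119 was removed and library sizes were recomputed. Totals without it ran from 4293 to 130543, where 3 counts equal 698.8 and 22.98 CPM. edgeR 4.0.16 in R 4.3.3 (trimmed-mean scaling, filterByExpr with a minimum count of 10 by tumour group, robust quasi-likelihood test, tumour and rich or poor as terms, Benjamini-Hochberg adjustment over 126 miRNAs at 0.05) gave log2 fold changes; SEs are the fold change over the root of F. DESeq2 1.42.0, limma 3.58.1 voom and other scalings, filters and left-out libraries were alternatives. Single library measures were compared by exact permutation (scipy 1.17.1). The procedure was tested on simulated data. Named miRNAs are the 3 given with the split, the 10 of smallest p in each direction, up to 3 per list, the 6 most abundant per group, tumour calls or the 5 of smallest p, and the 3 largest arm differences. The members of split seed families, the late-numbered miRNAs, miR-143-3p and the remaining calls that are named besides were chosen after their values were seen. The split, the named members and the lists were chosen with earlier results of these data known. Sequences are RefSeq's (GRCm38.p6) and gene context is GENCODE M21.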

Additional observations from a re-analysis of the deposited data

Results flagged for a closer look

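Within the 5 rich or the 5 poor libraries, 19 of 129 sets of values held 1 library far from the other 4 by Dixon's criterion (a gap over 0.71 of the range). Chance gives about 1 set in 20 for separate sets of normally distributed values. Several of these sets overlap, and none was put on a log scale, so 19 of 129 is not read against that rate. In each case the library was the highest of its group. CPM below is scaled by edgeR without miR-5119, and shares are percent of counts without miR-5119.

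C26 6 stood apart among the poor libraries in 6 sets, through its most abundant miRNA (51.5% of counts, next 25.7%), which is miR-486a-5p. In CPM miR-486a-5p was at 705343 there (next 303797), miR-328-3p at 23016 (next 7424), miR-151-3p at 24209 (next 14877), miR-206-3p at 8951 (next 1317) and miR-155-5p at 1492 (next 491.3). C26 5 stood apart among the poor libraries in the share of miRNAs numbered 5000 or above (17.97%, next 1.87%), in the muscle list (9.05%, next 1.77%) and in its main member miR-1a-3p (92916 CPM, next 23605). Control 1 did so in miR-434-5p (1462 CPM, next 359.2).

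Among the rich libraries C26 3 was far above the rest in miR-16-5p (8136 CPM, next 2883), let-7f-5p (33590 CPM, next 16702), miR-93-5p (2786 CPM, next 1154) and miR-126a-5p (9339 CPM, next 1950). C26 1 was so in the muscle list (20.3%, next 8.37%) and in miR-1a-3p (193017 CPM, next 81503), and C26 4 in the epithelial list (1.83%, next 0.812%). Control 4, the only rich control, was far above the rich tumour-bearing libraries in both miRNAs called in the tumour comparison with the term, miR-146a-5p (12055 CPM, next 3044) and miR-455-5p (1048 CPM, next 178.7). The value of miR-455-5p in control 4 rests on 4 counts, in a library where 3 counts equal 698.8 CPM. Causes were not tested.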

How the results depend on the processing

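Of 1229 values of named miRNAs, rich against poor, under an alternative, 1075 stayed on their side of the threshold, 80 lost the call, 55 gained one, 18 shifted, and 1 called value reversed (miR-375-3p at 4.39 with a replicate block). A further 39 values of miRNAs not called in the main comparison also changed sign, so that 13 miRNAs had a sign change in all. The count of 41 calls, rich against poor, became 72 with no filter (54 higher, 18 lower), 14 with a replicate block, 16 within controls alone and 26 to 50 with 1 library left out. DESeq2 called 61, 41 of them the same miRNAs. The 2 tumour calls with the term became 0 under relative log or total-count scaling, 10 CPM in 4 libraries, limma voom, the non-robust fit, the replicate block, without both controls whose descriptions hold 2 numbers, without the libraries under 10000 counts and within the poor libraries. The count was 1 with no filter and 1 within the rich libraries, neither of them a miRNA called before, 1 of the 2 with the filter by rich or poor, 4 with DESeq2 (both of the 2 among them), and 0 to 3 with 1 library left out. Without the term, 0 became 4 with no filter, 5 with DESeq2, 16 with limma voom, and 0 to 1 with 1 library left out. The interaction's 0 became 1 with no filter and 1 with 10 CPM in 4 libraries; it could not be fitted without control 4 or the libraries under 10000 counts.

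The difference in miRNAs seen at 4293 counts was 74.9 within tumour-bearing libraries (exact permutation p = 0.133, the smallest possible there) and 77.4 to 98.5 with 1 library left out. That in total counts was -6064 and -66255 to -40403. Spearman's rho of fold change and composition was 0.0823 with no filter, -0.0345 with 10 CPM in 4 libraries, -0.543 with the filter by rich or poor, -0.0748 without both controls of 2 numbers, -0.204 with the block, -0.155 within tumour-bearing and -0.0509 within control libraries, and -0.52 to -0.19 with 1 library left out. Over the miRNAs also tested in the main comparison it was -0.54 to -0.20 under the alternatives. The rho alternatives, and the left-out and tumour-bearing values of the library measures, were chosen after seeing the data.

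Deviations from the labelled group means correlated at -0.36, -0.31, -0.27 and 0.15 between same-numbered libraries of the 2 labelled groups. These deviations still hold the split into rich and poor, so they cannot show whether the numbers pair the libraries. The block, which uses 8 libraries in pairs, lowered the calls to 14 with 12 shared. The rich libraries' depth limits detection there: 3 counts are 63.8 to 698.8 CPM in them and 22.98 to 110.6 in the poor.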

Other observations

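The share of late-numbered miRNAs in C26 5, a poor library, came mainly from 1 miRNA, named here after its values were seen. miR-7648-5p made up 10.2% of C26 5, and at most 0.0777% of any other plasma library. Its log2 fold change, rich minus poor, was -6.87 and was not called by edgeR (adjusted p = 0.0556); the rich libraries ranged from 0.0233% to 0.0476% and the other 4 poor ones from 0 to 0.0777%. miR-8099 showed the reverse: it had counts in all 5 rich libraries, from 0.0147% in C26 3 to 2.75% in C26 4, and none in the 5 poor ones, yet it was not called (adjusted p = 0.0589).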
